A study of Oryza sativa with 2 samples.

Results

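The loci described here are stretches of the rice (Oryza sativa) nuclear genome, 200 nt or longer, from which intermediate-size RNA was sequenced. They were chosen by chromosome, position and length and not by read number: loci on chrC and chrM were left out, as were 3 stretches on chromosomes 1, 4 and 10 that resemble organelle DNA. Of the 1349 loci in the deposited lists, 52 met the rule (3.85%). A further 5 nuclear loci of this length lay inside the 3 stretches, and 8 lay on chrC or chrM. Loci carry the authors' names, JNnc_loci and a number.

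Plant cells hold many stable non-coding RNAs between the size of small regulatory RNAs and messenger RNAs. They include the spliceosomal small nuclear RNAs, the small nucleolar RNAs that guide modification and cleavage of ribosomal RNA, the RNA of the signal recognition particle, which brings ribosomes to the endoplasmic reticulum, and the RNA subunits of ribonucleases P and MRP. Small nucleolar RNA genes of plants often lie in arrays. The lists name no RNA and no gene, nor do the sources used here give their genome build. No locus was therefore assigned to an RNA family, gene, exon, intron or UTR, and no sequence is shown.

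Each of the 2 stages was a single library of RNA between 50 and 500 nt. The stage 1 library is labelled with coleoptiles (the sheath around the emerging grass shoot), radicals, shoot and tillering leaves, and the stage 2 library with anther, pistil and grouting embryo, spelled as in the labels. Cultivar, age and any pooling are not stated, and no treatment is named. The stage 1 list held 80651 reads and the stage 2 list 117798. With 1 library per stage no value has a replicate error, no test between stages was possible, and all differences are between these 2 libraries. Ratios below are stage 2 over stage 1 in reads per 1000000 listed reads (RPM), with a 95% interval that covers counting error only.

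Lengths ran from 200 to 1227 nt with a median of 242 nt. There were 9 loci under 220 nt, 25 from 220 to under 250 nt, 9 from 250 to under 300 nt, 6 from 300 to under 350 nt and 3 of 350 nt or more. Only JNnc_loci0983, at 1227 nt, exceeded the 500 nt upper limit of the size fraction. The most frequent length was 247 nt, with 6 loci, and no other length occurred more than 2 times. Of these 6, 5 had identical counts and matched a chrC locus in length and counts. Just inside the length minimum were JNnc_loci0249 at 200 nt with 95 and 88 reads in stages 1 and 2, JNnc_loci0852 at 201 nt with 0 and 2 reads, and JNnc_loci0297 at 209 nt with 200 and 487 reads. Just outside it were JNnc_loci1147 at 197 nt with 895 and 1078 reads, and JNnc_loci0175 and JNnc_loci0176 at 196 nt with 2875 and 2071, and with 1611 and 1351. The minimum thus falls beside a group of loci with far more reads than most of the loci kept.

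**Figure D1:**
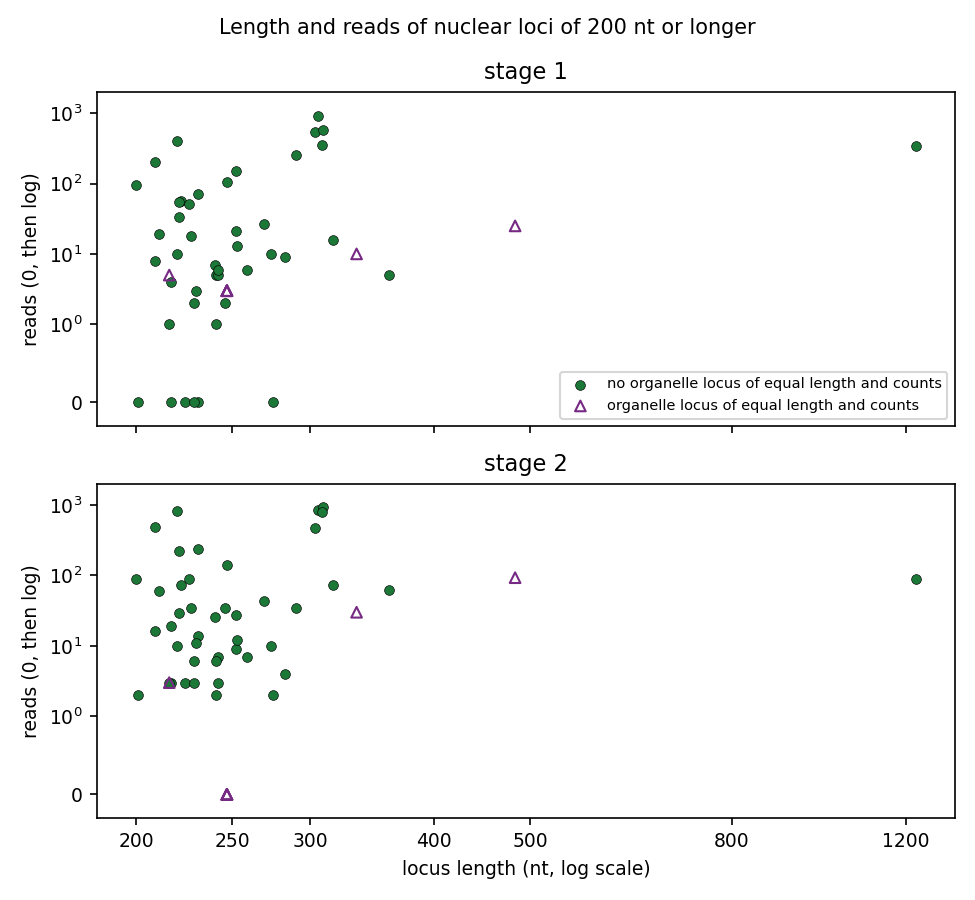
Reads of each of the 52 nuclear loci of 200 nt or longer (vertical axis, 0 and then a log scale) against locus length in nt (log scale), stage 1 above and stage 2 below. Triangles mark the 8 loci with the length and counts of an organelle locus, 5 of which lie on each other at 247 nt; the loci of 303 to 309 nt stand at or near the top in both libraries, and JNnc_loci0983 lies alone at 1227 nt.

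The loci lay on all 12 nuclear chromosomes. Chromosome 6 held the most, 10 of its 115 listed loci, followed by chromosomes 2 and 8 with 6 each, and chromosomes 1, 5 and 11 held 2 each. The plus strand carried 23 loci and the minus strand 29. Another listed locus lay within 500 nt on the same strand for 10 of the 52 (19.2%), beside 30.7% of all loci. Within 10 kb on the same strand, 26 of the 52 had another listed locus (50.0%, beside 48.1% of all loci). Another locus of 200 nt or longer lay that near for 19, a count with no background share beside it. Of the 19, 8 form a single row on chromosome 6, and JNnc_loci0958 and JNnc_loci0961 match chrC loci in length and counts.

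Together the 52 loci held 4445 stage 1 reads, 5.51% of the library (95% Clopper-Pearson interval 5.35 to 5.67), and 6024 stage 2 reads, 5.11% (4.99 to 5.24). Their ratio was 0.928 (0.892 to 0.965), beside 1.014 (1.004 to 1.023) for the 1139 shorter nuclear loci outside the same 3 stretches. Those shorter loci held 92.5% of stage 1 and 93.8% of stage 2 reads, so their ratio lies near 1 by construction. It is not an independent comparator, and its interval does not allow for this. The 0.928 depended on single loci. Without JNnc_loci0398 it was 1.002 (0.960 to 1.046), and without JNnc_loci0983, the only locus over 500 nt, it was 0.989. It also depended on the length minimum: at 180 nt, which lets in the loci of 196 nt, it was 0.484. The 10 loci with most reads took 83.2% of the stage 1 and 82.4% of the stage 2 reads of the 52. The median locus had 9.5 reads in stage 1 and 17.5 in stage 2.

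In both lists together, 41 of the 52 loci (78.8%) were found in both libraries, beside 48.3% of all loci. Presence in both went with read number. Of all loci with 2 or 3 reads, 51 of 603 were in both, and of those with 20 to 99 reads, 158 of 164. The 52 had more reads: 31 of them (59.6%) had at least 20 reads over both libraries, against 35.8% of all loci. Only 19.2% of the 52 had 2 or 3 reads, against 44.7% of all loci. The higher share in both is therefore not a trait separate from read number. Found in stage 1 only were 5 loci (9.62%, beside 13.8% of all loci), with 3 reads each. Found in stage 2 only were 6 (11.5%, beside 37.9% of all loci). Of the 6 found in stage 2 only, JNnc_loci0599, JNnc_loci0788 and JNnc_loci0874 had 3 reads and JNnc_loci0852 and JNnc_loci1255 had 2. The sixth, JNnc_loci0183 (231 nt, chromosome 2, 5237730 to 5237960, minus strand), had 14 reads in stage 2 and 0 in stage 1, at least 3.20-fold higher in stage 2 against a floor of 3 stage 1 reads. That bound takes the 14 reads as exact, and the counting interval of the ratio starts at 2.27. A count of 0 allows up to 37.2 RPM in stage 1 and 25.5 RPM in stage 2.

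Of these 31, stage 2 was higher by 2-fold or more in 10, beside 32.9% of all loci with as many reads, and lower by 2-fold or more in 4, beside 11.6%. Both counts are near those backgrounds. Counting intervals lay above 1 for 13 of the 31 (48.4% of all loci with as many reads) and below 1 for 7 (22.8%). Libraries were also scaled so that the median locus had a ratio of 1, which divides ratios by 1.39. Then 5 of the 31 were at least 2-fold higher, beside 18.2% of all loci with as many reads, and 11 at least 2-fold lower, beside 22.2%. With this scaling the higher count was near its background and the lower count above it. With a length minimum of 180 nt and no such scaling, the lower loci went from 4 to 16, but the set itself grew from 52 to 78 loci. No background share is given for that larger set, so the 16 cannot be set against the 11.6%. The median ratio of the 31 was 1.15, below the 1.39 of all loci with as many reads. The 17 loci within 2-fold had ratios from 0.602 to 1.67, and for 10 of them the interval included 1.

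**Figure D2:**
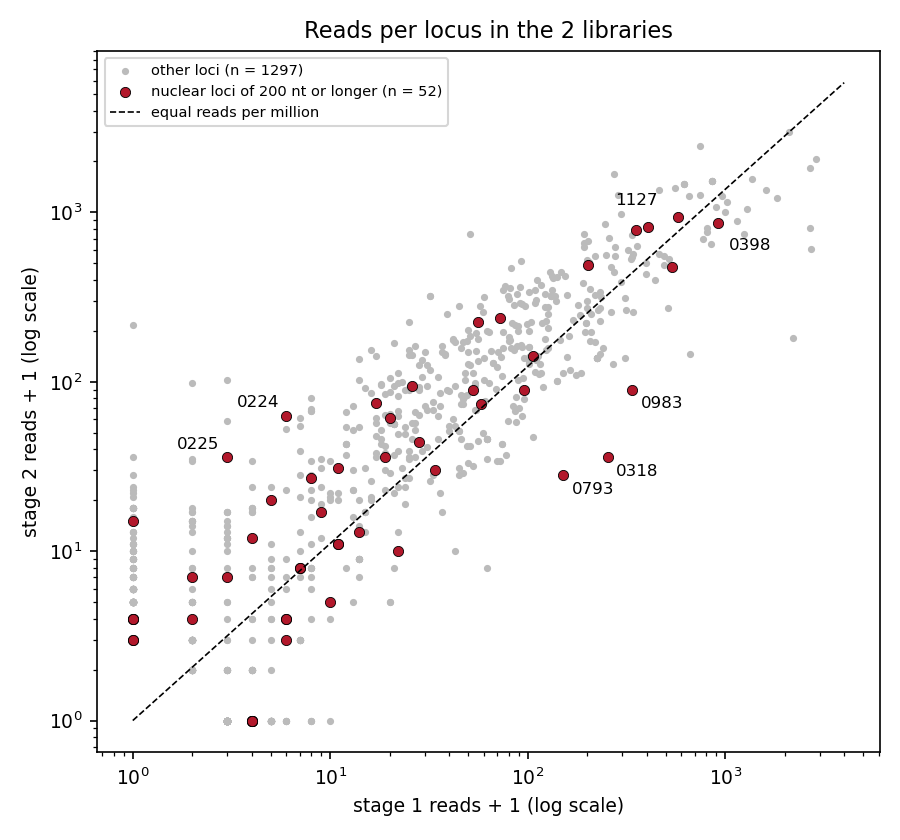
Stage 2 against stage 1 reads per locus, each plus 1, on log axes, for the 52 nuclear loci of 200 nt or longer (red) and the 1297 other loci (grey), with a dashed line at equal RPM. JNnc_loci0318, JNnc_loci0793 and JNnc_loci0983 lie well below the line, and JNnc_loci0224 and JNnc_loci0225 above it.

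Among the 6 loci with most reads in stage 2 were 4 of nearly equal length, 303 to 309 nt, a set chosen after the values were seen; the other two were JNnc_loci0941 and JNnc_loci0297. They took 53.5% of the stage 1 reads of the 52 and 50.9% of the stage 2 reads. JNnc_loci0398 (305 nt, chromosome 3, 29375410 to 29375714, plus strand) had 918 and 861 reads in stages 1 and 2. JNnc_loci0783 (303 nt, chromosome 6, 26219056 to 26219358, minus strand) had 535 and 474. JNnc_loci1127 (309 nt, chromosome 10, 18969021 to 18969329, minus strand) had 574 and 937. JNnc_loci1129 (308 nt, 19082434 to 19082741) lay 113104 nt further on, on the opposite strand, with 351 and 792.

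These 4 did not share a stage ratio. JNnc_loci0398 and JNnc_loci0783 were lower in stage 2, at 0.642 (0.584 to 0.705) and 0.607 (0.535 to 0.688), with overlapping intervals. The chromosome 10 loci were higher, JNnc_loci1127 at 1.12 (1.01 to 1.24) and JNnc_loci1129 at 1.54 (1.36 to 1.76). Their intervals overlapped neither each other nor those of the other two. Scaled to the median locus JNnc_loci1127 turned to 0.805, and JNnc_loci1129 was at 1.11. Summed, the 4 were at 0.882 (0.836 to 0.931). No other locus of the lists had the length and both counts of any of them.

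Levels between loci were also set per length. On the scale of RPM per 100 nt, JNnc_loci0398 led stage 1 at 3732 and JNnc_loci1127 followed at 2303. In stage 2 the order changed, with JNnc_loci0941 first at 3183 RPM per 100 nt, JNnc_loci1127 at 2574 and JNnc_loci0398 at 2396. A shorter listed locus, JNnc_loci0940, lies inside JNnc_loci0941, and whether reads were counted at both is not known. JNnc_loci0983, sixth in stage 1 by reads, was 12th per length.

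**Figure D3:**
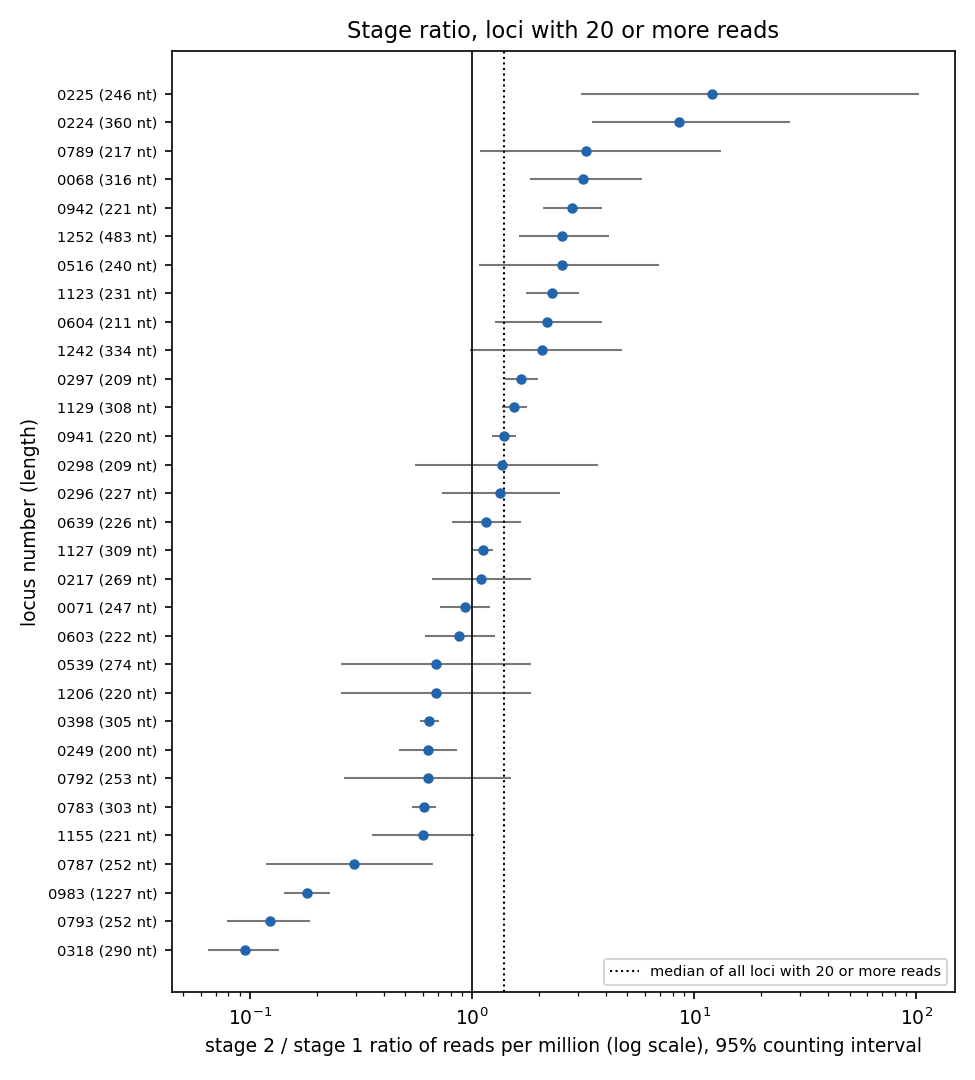
Stage 2 to stage 1 ratio of RPM (log scale) with its 95% counting interval for the 31 nuclear loci of 200 nt or longer with at least 20 reads, each labelled by locus number and length and ordered by ratio. The solid line marks a ratio of 1 and the dotted line the median of all loci with as many reads, 1.39; the 4 lowest loci lie under 0.5 and JNnc_loci0224 and JNnc_loci0225 highest.

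Among the 31 loci with at least 20 reads, those furthest toward stage 1 were JNnc_loci0318, JNnc_loci0793, JNnc_loci0983 and JNnc_loci0787. JNnc_loci0318 (290 nt, chromosome 3, 7102455 to 7102744, minus strand) had 253 stage 1 and 35 stage 2 reads, or 3137 and 297 RPM, a ratio of 0.0947 (0.0645 to 0.135). JNnc_loci0983 (chromosome 8, 22321799 to 22323025, plus strand) had 337 and 89 reads and a ratio of 0.181 (0.142 to 0.229). Its nearest listed locus on that strand lay over 1 Mb away, and its length lies beyond the size range of the fraction. The fifth lowest of the 31 was JNnc_loci1155 (221 nt, chromosome 11) with 33 and 29 reads, at 0.602 (0.352 to 1.02), an interval that includes 1.

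JNnc_loci0318 ran against the loci beside it. It belonged to a cluster of 4 on one strand of chromosome 3, with a gap of 67 nt to JNnc_loci0319. JNnc_loci0317 (77 nt) had 201 and 677 reads, a ratio of 2.31 (1.97 to 2.71), and JNnc_loci0319 (155 nt) had 256 and 709, a ratio of 1.90 (1.64 to 2.20). JNnc_loci0316 (73 nt), with 20 and 21 reads, was at 0.719 (0.371 to 1.40). The 3 neighbours together were at 2.02 (1.82 to 2.25), and these intervals do not overlap that of JNnc_loci0318.

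On chromosome 6, 8 of the 52 loci lay in a row on the minus strand within 25492 nt, from 26465260 to 26490751. The row was picked out after its values were seen. Shorter loci, JNnc_loci0786 (110 nt) and JNnc_loci0791 (176 nt), lay between them with 1 and 3, and with 5 and 3 reads. Gaps between neighbours among all 10 listed loci ran from 1254 to 4638 nt, too wide to count as a cluster by the 500 nt rule. The 8 loci held 199 and 94 reads, a ratio of 0.323 (0.250 to 0.415), but this rested on JNnc_loci0793 at the end of the row. JNnc_loci0793 (252 nt, 26490500 to 26490751) had 150 and 27 reads, a ratio of 0.123 (0.0786 to 0.187), and without it the other 7 were at 0.936 (0.638 to 1.38).

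Within the row the summed ratios of longer and shorter loci differed beyond their counting intervals. The 4 loci of 252 to 259 nt had 190 stage 1 and 55 stage 2 reads, a ratio of 0.198 (0.144 to 0.269). Among them JNnc_loci0787 (252 nt) had 21 and 9 reads and was at 0.293 (0.118 to 0.668), while JNnc_loci0792 (253 nt, 13 and 12 reads) and JNnc_loci0784 (259 nt, 6 and 7 reads) had intervals that include 1. Without JNnc_loci0793 the longer loci were at 0.479 (0.285 to 0.796). The 4 loci of 217 to 230 nt had 9 and 39 reads, a ratio of 2.97 (1.41 to 6.97). JNnc_loci0789 (217 nt, 4 and 19 reads) was at 3.25 (1.08 to 13.1), while JNnc_loci0785, JNnc_loci0790 and JNnc_loci0788 had 3 and 11, 2 and 6, and 0 and 3 reads. Longer and shorter loci are interleaved along the row, as the plot of reads by distance shows. The split by length was made after the values were seen and rests on few reads in the shorter loci.

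**Figure D4:**
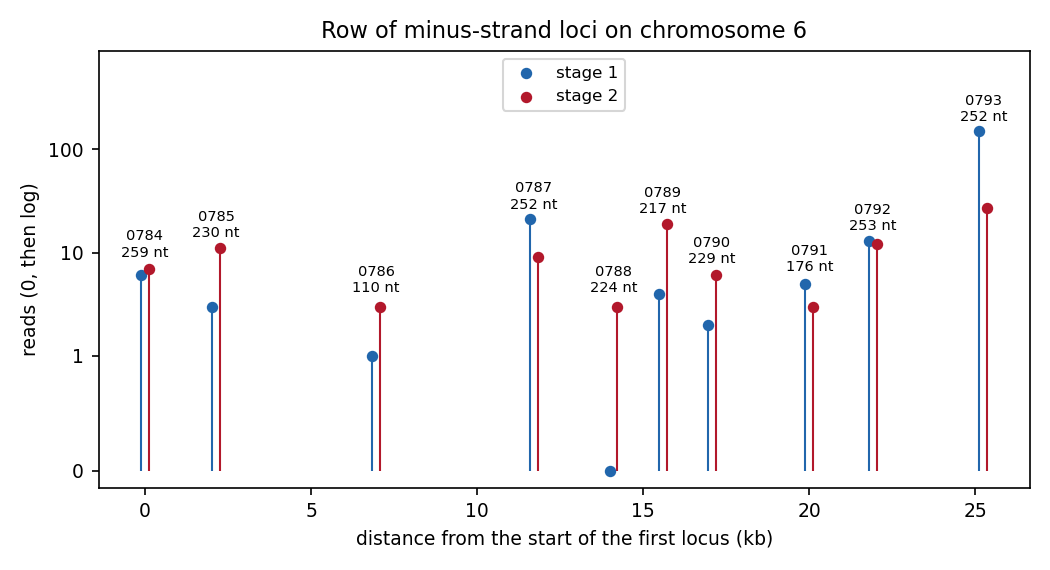
Reads in stage 1 (blue) and stage 2 (red), 0 and then a log scale, for the 10 minus-strand loci of a row on chromosome 6, against the distance in kb of each locus from the start of the first; labels give locus number and length. JNnc_loci0793 has the most reads, 150 in stage 1 and 27 in stage 2, and JNnc_loci0785, JNnc_loci0789 and JNnc_loci0790 have more in stage 2.

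Across all 52 loci, those from 250 to under 300 nt had the lowest summed ratio, 0.209 (0.172 to 0.251) on 489 and 149 reads. That sum is mostly JNnc_loci0318 and JNnc_loci0793, and the other 7 loci of this length were at 0.693 (0.508 to 0.944) on 86 and 87 reads. Loci under 220 nt were at 1.40 (1.23 to 1.61) and those from 220 to under 250 nt at 1.43 (1.32 to 1.55), both sums near the median locus. Single loci weighed heavily here too. JNnc_loci0297 held 200 and 487 of the 332 and 681 reads under 220 nt. JNnc_loci0941 held 406 and 825 of the 853 and 1782 reads from 220 to under 250 nt. Over single loci there was little relation: Spearman's rho between length and ratio was -0.07 across the 31 loci with at least 20 reads, and 0.22 between length and reads across all 52. Reads in the 2 libraries went together across the 41 loci found in both (Spearman's rho 0.82, Pearson's r of log2 reads 0.83). Loci share their library and are not replicates.

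Toward stage 2, the highest ratios of the 31 were those of neighbours on the plus strand of chromosome 2. JNnc_loci0225 (246 nt, 22892852 to 22893097) had 2 stage 1 and 35 stage 2 reads, a ratio of 11.98 (3.08 to 103). JNnc_loci0224 (360 nt, 22892402 to 22892761), 90 nt before it, had 5 and 62 reads, a ratio of 8.49 (3.45 to 27.1). Together they had 7 and 97 reads, and their ratio of 9.49 (4.43 to 24.2) stayed above 1 scaled to the median locus, at 6.84. Next among the 31 were JNnc_loci0789 of the chromosome 6 row and JNnc_loci0068 (316 nt, chromosome 1, 23322528 to 23322843, plus strand), at 3.17 (1.83 to 5.83) on 16 and 74 reads.

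Near-equal lengths recurred in neighbours on chromosome 8. JNnc_loci0941 (220 nt, 4668851 to 4669070, minus strand) had 406 and 825 reads, a ratio of 1.39 (1.23 to 1.57) that became 1.002 scaled to the median locus. JNnc_loci0942 (221 nt, 4674754 to 4674974), 5683 nt away on the same strand, had 55 and 226 reads and a ratio of 2.81 (2.09 to 3.85). The stronger locus thus had 7.38 times the reads of its neighbour in stage 1 and 3.65 times in stage 2. A shorter listed locus, JNnc_loci0940 (142 nt, 274 and 623 reads), lies wholly inside JNnc_loci0941 and shares its start coordinate. Whether reads were counted at both is not known.

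On chromosome 3, JNnc_loci0296, JNnc_loci0297 and JNnc_loci0298 formed a cluster on the plus strand made only of loci of this length. JNnc_loci0297 (2143093 to 2143301) and JNnc_loci0298 (2143393 to 2143601) are both 209 nt long and start 300 nt apart. They differed 25.0-fold in stage 1 reads and 30.4-fold in stage 2, at 200 and 487 against 8 and 16. JNnc_loci0296 (227 nt, 2142433 to 2142659) had 18 and 35 reads. Their ratios were 1.33 (0.734 to 2.50), 1.67 (1.41 to 1.98) and 1.37 (0.553 to 3.70) in order of position, with intervals that overlap.

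JNnc_loci0603 (222 nt) and JNnc_loci0604 (211 nt), 1185 nt apart on the plus strand of chromosome 4, had 57 and 73, and 19 and 60 reads. JNnc_loci0604 was at 2.16 (1.27 to 3.84) and JNnc_loci0603 at 0.877 (0.612 to 1.26), and the intervals do not overlap. On chromosome 5, JNnc_loci0639 (226 nt, 52 and 88 reads) stood at the end of a cluster of 5 at a ratio of 1.16 (0.813 to 1.67). Its 4 shorter neighbours together were at 2.01 (1.66 to 2.44), an interval that just meets it. JNnc_loci0747 (242 nt, chromosome 6, 5 and 3 reads) lay in a cluster whose 5 shorter loci had 334 and 1417 reads. JNnc_loci0852 lay 74 nt from JNnc_loci0851 (63 nt) on chromosome 7, and each had 0 and 2 reads.

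Other single loci with many reads included JNnc_loci1123 (231 nt, chromosome 10, 17156740 to 17156970, minus strand), at 2.30 (1.75 to 3.04) on 71 and 238 reads. JNnc_loci0071 (247 nt, chromosome 1, 24614744 to 24614990, plus strand) had 105 and 142 reads, a ratio of 0.926 (0.714 to 1.20). JNnc_loci0249 (chromosome 2, 26576465 to 26576664, minus strand) was at 0.634 (0.469 to 0.857). The 21 loci with under 20 reads, of 201 to 283 nt, had 0 to 9 reads in stage 1 and 0 to 14 in stage 2, too few for a ratio to be read from most of them.

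Copies were sought as loci that matched in length and in the counts of each library. No such group joined only loci of the 52: all 8 loci with an equal also matched a locus on chrC or chrM. The 5 loci found in stage 1 only, JNnc_loci0665, JNnc_loci0914, JNnc_loci0958, JNnc_loci1036 and JNnc_loci1243 on chromosomes 5, 7, 8, 9 and 12, are each 247 nt long with 3 and 0 reads, like JNnc_loci1309 on chrC. JNnc_loci0961 (216 nt, chromosome 8) had the 5 and 3 reads of JNnc_loci1306 on chrC. Each of these groups also held 2 loci in the left-out stretches of chromosomes 4 and 10. JNnc_loci0958 and JNnc_loci0961 lay 2970 and 3330 nt from JNnc_loci0960. On chrC, JNnc_loci1309 and JNnc_loci1306 lay 2974 and 3327 nt from JNnc_loci1308, a similar spacing. JNnc_loci1252 (483 nt, chromosome 12, 20626756 to 20627238) had 25 and 93 reads, and JNnc_loci1242 (334 nt, chromosome 12, 20434794 to 20435127) 10 and 30, equal to JNnc_loci1328 and JNnc_loci1336 on chrM. Their ratios were 2.55 (1.62 to 4.14) and 2.05 (0.977 to 4.71), so 2 of the 10 loci past 2-fold toward stage 2 have the length and counts of a mitochondrial locus. Whether the reads came from the nuclear or the organelle positions was not tested. The 8 held 55 and 126 reads, and without them the ratio of the other 44 was 0.920 (0.884 to 0.957).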

How the data were processed

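Per the labels' protocols, RNA of 50 to 500 nt was collected, adaptors were ligated to both ends, and cDNA that had not been amplified was read by pyrosequencing. The authors deposited 1 list of loci per library, with a count per locus that was read, from its values, as raw reads. The sources used here give no aligner, build, rule defining a locus or treatment of reads matching several positions. Reads counted at several loci would enter more than once and make intervals too narrow.

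The lists were joined by locus name, with 0 reads where a name was missing. The lowest total of any locus was 2 reads. Starts were raised by 1 for the positions given here, taking the lists as BED. Length is end minus the listed start, before it was raised. RPM used the sum of each list, 80651 and 117798 reads. Ratios have exact conditional binomial (Clopper-Pearson) 95% intervals, which together with floors of 3 reads cover counting error only. Log2 ratios used for medians had 0.5 reads added. Count models needing replicates could not be fitted.

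Named loci were the 10 with most reads in each library, the 5 highest and 5 lowest ratios, those with equal counts, in clusters, over 500 nt, beside the length minimum, or with 10 or more reads in 1 library and 0 in the other; any other named locus was picked with its values in view. The loci and rules were chosen with earlier results of these data known. Python 3.11.15, pandas 2.3.3 and scipy 1.17.1 were used. The interval method was run on simulated Poisson counts, the model it assumes. Those counts hold no variation between libraries and no reads counted at several loci, so the run says nothing about either.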

Additional observations from a re-analysis of the deposited data

How the results depend on the processing

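The summed ratio of 0.928 went to 1.002 without JNnc_loci0398, with an interval (0.960 to 1.046) that includes 1, so no difference remained in either direction. It moved to 0.669 scaled to the median locus, 0.484 with a length minimum of 180 nt, which lets in loci of 196 nt, 0.889 with a minimum of 220 nt, 0.989 for loci of 500 nt or shorter, 0.869 for single loci and 0.980 without the 4 loci of 303 to 309 nt. The ratio of JNnc_loci1127 reversed to 0.805 scaled to the median locus. Loci at least 2-fold higher in stage 2, 10 as reported, numbered 6 with at least 50 reads, 4 at 3-fold and 5 scaled to the median locus. Those at least 2-fold lower, 4 as reported, numbered 16 with the 180 nt minimum, 11 scaled to the median locus and 7 by the counting interval. Loci in both libraries went from 41 to 65 with the 180 nt minimum, which raises the set from 52 to 78 loci. Background shares are not given here for the settings of 50 reads, 3-fold or 180 nt. Stage 1 only loci fell from 5 to 1 with equal loci entered once, and to 0 without the loci that match an organelle locus, by construction. The other 57 alternative values of these results stayed within their interval or within 1.5 times the count. Of the alternative values for single loci, the chromosome 6 row and the loci of 303 to 309 nt, 15 stayed within their interval and 13 moved outside it without reversing. Leaving out loci that match an organelle locus, the 303 to 309 nt loci or JNnc_loci0793 was chosen after seeing the data. No paired analysis was possible because there is 1 library a stage, which also means that none could be omitted. Depth limits the 21 loci with under 20 reads.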
